A study of Homo sapiens with 8 samples.

Results

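The hexosamine pathway and the O-GlcNAc enzymes were followed in MDA-MB-157 cells, an established human breast cancer line without estrogen receptor, as 10 genes of the 21059 in the deposited expression table. The 10 genes were picked by name for their place in the pathway, with earlier results of these data known: GFPT1, GFPT2, GNPNAT1, PGM3, UAP1, NAGK, GNPDA1, GNPDA2, OGT and MGEA5. All 10 were found, MGEA5 under its current symbol, OGA, to which RefSeq links it. Each gene had a mean of at least 20.3 counts per 1000000 reads (CPM) over the libraries, and the member with the fewest reads still had 219 in its lowest library.

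The low glucose group held 4 libraries of cells kept at 5 mM glucose and the high glucose group 4 libraries of cells kept at 25 mM glucose, both for 48 hours before RNA was taken. By the methods of the study, the medium was free of serum, all cells were first conditioned in low glucose, and the 25 mM level served as a model of hyperglycemia. No library with mannitol to balance the osmolarity was among the 8, so glucose and osmolarity cannot be told apart here. In some other experiments the study did add mannitol to the controls. It reported no differences in the phenotypes it examined, such as proliferation and migration, which are not RNA measurements. Cells of 1 line were used, and the labels do not say how independent the replicate cultures were, so the p-values measure only the spread between these samples.

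Glucose that enters a cell is mostly burned or stored, and a small part is diverted from fructose 6-phosphate into the hexosamine pathway. GFPT1 and GFPT2 open the route by moving an amino group from glutamine to make glucosamine 6-phosphate. GNPNAT1 acetylates that product, PGM3 moves the phosphate, and UAP1 reacts the sugar phosphate with uridine triphosphate to give UDP-GlcNAc, the donor for protein glycosylation. OGT places single GlcNAc residues on nuclear and cytoplasmic proteins, MGEA5 removes them, NAGK returns free GlcNAc to the pathway, and GNPDA1 and GNPDA2 turn glucosamine 6-phosphate back into fructose 6-phosphate.

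The sums of reads listed in the table ran from 9721637 to 12482546 per library. One library stood apart. In high glucose replicate 1, the deviation of each gene from the other 3 libraries of its group fell with transcript length (Spearman correlation of -0.65 across 11223 genes, which are not independent replicates), against 0.25 to 0.47 in the other 3 high glucose libraries and -0.13 to 0.06 at low glucose. Deviations within a group sum to 0, so the positive values at high glucose are partly set by replicate 1. Of the marker genes that check the label, ESR1, the estrogen receptor, had means of 0.121 ± 0.0811 and 0.0598 ± 0.0406 CPM at low and high glucose (SD, n = 4 each), below the level of 3 reads in every library (0.212 to 0.267 CPM). VIM, CD44, KRT8 and KRT18 were all well detected, while EPCAM had means of 4.5 and 7.0 CPM. PGR, the progesterone receptor, was detected at 4.76 ± 0.36 and 5.35 ± 0.597 CPM, and ERBB2 at 63.6 ± 1.29 and 39.2 ± 2.58 CPM. Of the 8 markers used for the breast cancer line, 2 rose (EPCAM and CD44) and 4 fell (ERBB2, KRT8, KRT18 and VIM). The other 2, ESR1 and PGR, did not pass the test described further on. The study counts VIM among the driver genes of epithelial-to-mesenchymal transition, so the 8 are not all epithelial markers. Of 6 markers of other cell types, CD3E was not found among the genes and the other 5 (PTPRC, CD68, PECAM1, CDH5 and ALB) summed to 10.7 to 15.4 CPM in the low glucose libraries and 13.3 to 17.0 CPM in the high glucose libraries, most of it CD68. PECAM1 rose from 1.0 ± 0.159 to 2.13 ± 0.58 CPM (adjusted p = 0.00775 by limma), and CDH5 was called lower at levels near or below 3 reads. Any part of other cells in the changes of the enzymes was not tested.

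High glucose cells had more transcript of 5 of the 10 enzymes and less of 3. UAP1 and GFPT2, which finish and start the route to UDP-GlcNAc, were close to double their low glucose level, with folds of 1.99 and 1.91 on the log2(CPM + 1) scale. GNPDA1, GNPNAT1 and GFPT1 rose by smaller amounts, and NAGK, OGT and MGEA5 fell. PGM3 and GNPDA2 did not pass the test. The threshold was an adjusted p under 0.05 from limma, fitted to all 21059 genes with Benjamini-Hochberg adjustment over all of them.

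Changes were common across the transcriptome, and the counts have to be read against that. Of all genes tested, 22.0% were called higher and 24.8% lower, and among the 11297 genes with a mean of at least 5 CPM, to which all 10 enzymes belong, 33.6% were called higher and 33.3% lower. The groups did not overlap for the same 5 enzymes that were called higher and the same 3 called lower, where 32.5% of the genes of at least 5 CPM were higher and 32.5% lower without overlap. The 3 lower calls are near that background, and the 5 higher calls are too few to set the enzymes apart as a group. The median log2 change of the 10 enzymes was 0.11, beside -0.01 over all genes. The largest single rises ranked high: 380 (3.36%) of the 11297 genes rose more than UAP1 and 467 (4.13%) rose more than GFPT2. UAP1 and GFPT2 were picked here as the largest rises of the 10, so their ranks do not set the enzymes apart either. For GNPDA1, GNPNAT1 and GFPT1, 21.2%, 28.7% and 36.4% of those genes rose more. In a bulk measurement of this kind, a shift in the mix of cells and a change within each cell cannot be told apart.

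**Figure D1:**
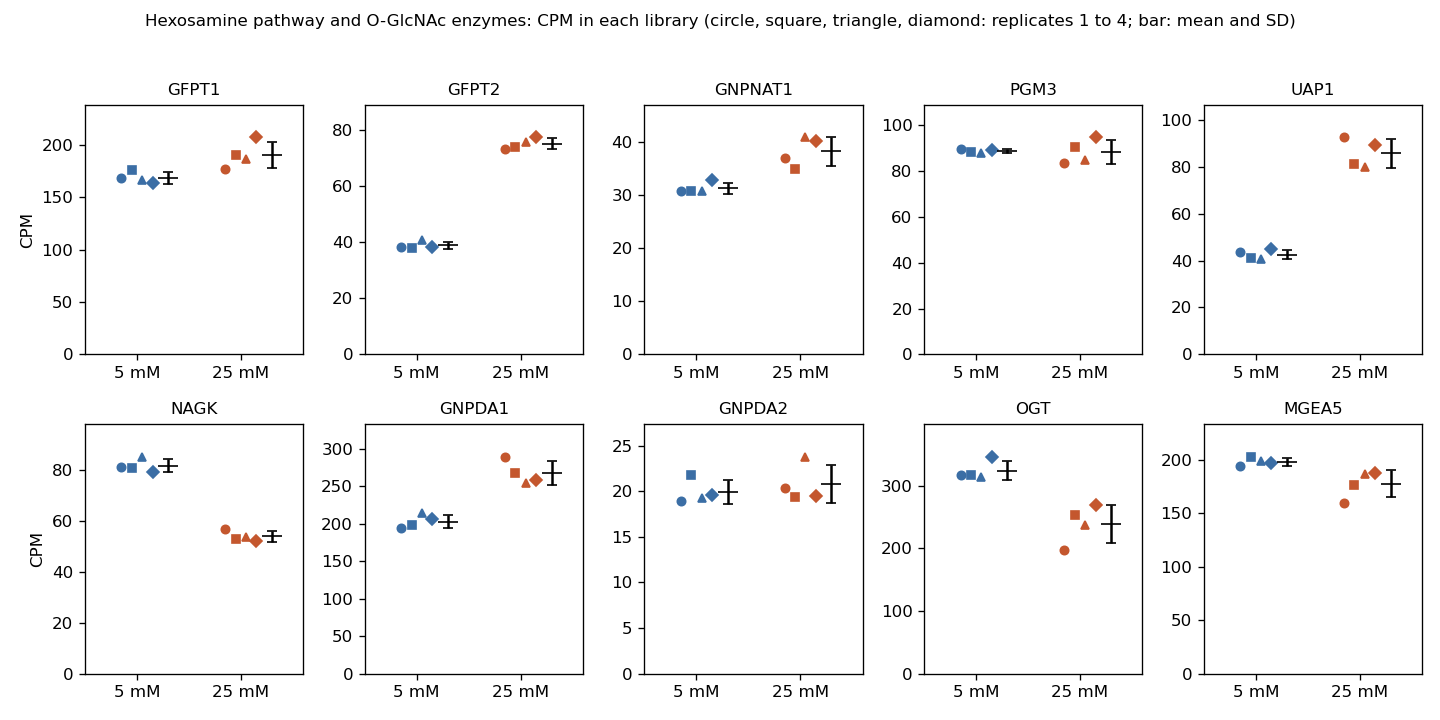
CPM (vertical axes, each from 0) of the 10 enzymes in each library at 5 mM and 25 mM glucose, with symbols for replicates 1 to 4 and a bar for the mean and SD of 4 libraries. The 2 groups stand far apart for GFPT2, UAP1 and NAGK, are separated by a small gap for GFPT1 and MGEA5, and overlap for PGM3 and GNPDA2.

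The stretches of 250 bases before the annotated starts of 4 enzymes are shown: GFPT2 and UAP1 because they rose together by the largest amounts, NAGK because it fell most, and GNPDA1 because it held a motif searched for. They were taken from RefSeq on GRCh38.p14 and read 5′ to 3′ on the strand of the gene, and for UAP1 and NAGK, which have several annotated starts, the first is shown. GFPT2 lies on the minus strand (chr5:180353337-180353586), UAP1 on the plus strand (chr1:162561281-162561530), NAGK on the plus strand (chr2:71068046-71068295) and GNPDA1 on the minus strand (chr5:142013028-142013277). Capitals mark the motif CACGTG, the E-box read by MYC and by the glucose-responsive MondoA family.
GFPT2: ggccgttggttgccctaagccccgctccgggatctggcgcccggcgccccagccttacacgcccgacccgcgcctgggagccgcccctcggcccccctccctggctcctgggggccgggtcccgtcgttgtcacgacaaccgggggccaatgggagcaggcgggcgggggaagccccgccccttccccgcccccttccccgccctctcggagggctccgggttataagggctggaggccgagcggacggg
UAP1: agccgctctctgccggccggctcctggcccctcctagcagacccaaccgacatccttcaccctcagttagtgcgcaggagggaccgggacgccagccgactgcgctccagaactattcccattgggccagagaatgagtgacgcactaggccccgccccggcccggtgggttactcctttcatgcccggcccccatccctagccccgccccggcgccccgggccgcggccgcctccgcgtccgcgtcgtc
NAGK: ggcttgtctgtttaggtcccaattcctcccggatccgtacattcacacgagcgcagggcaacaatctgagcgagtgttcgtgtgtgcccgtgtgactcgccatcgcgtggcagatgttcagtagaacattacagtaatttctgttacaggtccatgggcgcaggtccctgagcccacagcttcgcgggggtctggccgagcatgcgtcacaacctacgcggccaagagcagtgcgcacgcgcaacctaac
GNPDA1: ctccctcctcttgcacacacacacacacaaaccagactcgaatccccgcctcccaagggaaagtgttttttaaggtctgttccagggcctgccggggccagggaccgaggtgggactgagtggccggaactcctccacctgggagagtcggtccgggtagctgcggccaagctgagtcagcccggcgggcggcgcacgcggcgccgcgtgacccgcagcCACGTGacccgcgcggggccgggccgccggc
Both strands of the windows from 250 bases before to 50 bases after each start were searched for CACGTG and for TGACGTGG, a site of the unfolded protein response, and the 2 motifs do not contain each other. GNPDA1 alone of the 10 enzymes held CACGTG, with its first base 31 bases before the start, and none held TGACGTGG. Among all 35116 promoter windows of this length, 7.26% held CACGTG and 0.729% held TGACGTGG. A match is a description of the letters and not a bound site, and the lack of one covers these windows only. The windows were rich in G and C, with 77.0% for GFPT2, 70.7% for UAP1 and 58.7% for NAGK.

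The entry step was carried by 2 genes that moved unequally. GFPT2 (ENSG00000131459.13, 5:180300698-180353336 on GRCh38.p14) stood at 38.2, 37.9, 40.9 and 38.5 CPM in low glucose replicates 1 to 4 and at 73.5, 74.0, 76.0 and 77.5 CPM in high glucose replicates 1 to 4. Every high glucose library lay well above every low glucose library, and both groups were tight. The means were 38.9 ± 1.39 and 75.2 ± 1.87 CPM (SD, n = 4 each). The log2 change was 0.94 (SE 0.03, 95% interval 0.86 to 1.01, adjusted p = 1.8e-06 by limma).

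GFPT1 (ENSG00000198380.12, 2:69319780-69387227), the widely expressed form of the same enzyme, stood at 168, 176, 166 and 163 CPM at low glucose and at 177, 190, 186 and 207 CPM at high glucose. The highest low glucose library and the lowest high glucose library nearly touched. Its means were 168 ± 5.67 and 190 ± 12.7 CPM, with a log2 change of 0.17 (SE 0.05, 95% interval 0.05 to 0.29, adjusted p = 0.0261 by limma). That call was lost in 6 of 16 alternative settings. Under quantile normalization the change was 0.06 (adjusted p = 0.41 by limma), and without low glucose replicate 1, 3 or 4 or high glucose replicate 2 the adjusted p from limma was 0.0606, 0.0644, 0.0694 and 0.0585.

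The change of GFPT2 relative to GFPT1 was taken from their ratio in each library, since library scaling nearly cancels in a ratio of 2 genes. The ratios tested here were chosen with earlier results of these data known. Their p-values therefore add no independent support to the changes of the single genes. The log2 ratio of GFPT2 to GFPT1 was -2.09 ± 0.0811 at low and -1.32 ± 0.0685 at high glucose (SD, n = 4 each). The difference of 0.76 gave an exact two-sided permutation p = 0.0286, the smallest that 70 assignments allow, or 0.0429 adjusted over the 3 ratios tested. From the same values per length of transcript, GFPT2 made up 39.8 ± 1.37% of the combined GFPT1 and GFPT2 level at low glucose and 53.1 ± 1.18% at high glucose. The shares ran from 38.1% to 41.3% and from 51.7% to 54.3% without overlap, and they rest on annotated lengths of 3034 bases for GFPT2 and 8665 bases for GFPT1, the latter with 3.78% of its 31-base words found in other transcripts.

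Of the 3 enzymes after the entry step, the last changed most. GNPNAT1 (ENSG00000100522.10, 14:52775193-52791607), the acetyltransferase, stood at 30.8, 30.7, 30.7 and 32.9 CPM at low glucose and at 37.1, 35, 40.9 and 40.2 CPM at high glucose. The groups did not overlap. Its means were 31.3 ± 1.09 and 38.3 ± 2.77 CPM and its log2 change 0.28 (SE 0.05, 95% interval 0.15 to 0.41, adjusted p = 0.0043 by limma). In 40.24% of its 31-base words GNPNAT1 matched other transcripts, among them AL139317.3 on the opposite strand, which was listed at 3.16 ± 0.537 and 3.61 ± 0.825 CPM. Of the other sharing genes, SOAT1 was more abundant than GNPNAT1 and rose more, from 82.6 ± 2.58 to 132 ± 4.26 CPM (log2 change 0.67, adjusted p = 5.8e-06 by limma), and PHF21A stood at 31.9 ± 1.46 and 30.2 ± 2.46 CPM. Their part in the rise of GNPNAT1 was not tested. The study names a stranded library kit for its tumor RNA, but whether reads of these cells were counted by strand was not stated. How far reads of GNPNAT1 and its opposite-strand partner were mixed was not tested.

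PGM3 (ENSG00000013375.16, 6:83148705-83193900), the mutase, stood at 89.7, 88.4, 87.8 and 89.3 CPM at low glucose and at 83.6, 90.6, 85.1 and 94.8 CPM at high glucose. High glucose libraries fell on both sides of the narrow low glucose range. Its means were 88.8 ± 0.881 and 88.5 ± 5.15 CPM. The log2 change was -0.01 with a 95% interval of -0.10 to 0.09 (adjusted p = 0.955 by limma), so a change beyond about 0.10 on the log2 scale in either direction lay outside the interval. Under quantile normalization PGM3 did pass the test, with a change of -0.11 (adjusted p = 0.0492 by limma). PGM3 shared exon positions with DOP1A on the opposite strand, which had 24.0 ± 1.87 and 21.9 ± 3.05 CPM. In 18.43% of its 31-base words PGM3 matched other transcripts, DOP1A among them, and the part of shared reads was not tested.

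UAP1 (ENSG00000117143.13, 1:162561531-162601240), the pyrophosphorylase that yields UDP-GlcNAc, stood at 43.5, 41.1, 40.7 and 44.9 CPM at low glucose and at 92.5, 81.2, 79.8 and 89.1 CPM at high glucose. The lowest high glucose library was far above the highest low glucose library. The means were 42.5 ± 1.99 and 85.6 ± 6.15 CPM, and the log2 change was 0.99 (SE 0.06, 95% interval 0.86 to 1.13, adjusted p = 1.4e-05 by limma). Replicate 1 was the highest of the high glucose libraries, and without it the change was 0.95.

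The genes whose 8 values followed those of UAP1 most closely were HMGB2, SBDS, AK4, SLC25A38 and CPEB2, with root mean square differences of 0.0438, 0.0461, 0.0496, 0.0516 and 0.0552 on the log2(CPM + 1) scale after centring, among 11297 genes and over 8 libraries. They were chosen for this likeness, so their changes are given as a description. HMGB2, a chromatin protein, went from 103 ± 2.33 to 209 ± 9.44 CPM, and AK4, a mitochondrial adenylate kinase, from 23.2 ± 1.33 to 46.5 ± 3.21 CPM.

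Of the 3 genes that recover or take back the pathway's intermediates, NAGK fell, GNPDA1 rose and GNPDA2 did not pass the test. NAGK (ENSG00000124357.13, 2:71068296-71079808), the kinase that salvages free GlcNAc, stood at 80.9, 80.8, 85.1 and 79.1 CPM at low glucose and at 56.8, 52.8, 53.4 and 52.1 CPM at high glucose. All high glucose libraries lay below all low glucose libraries with a wide gap. The means were 81.5 ± 2.55 and 53.8 ± 2.10 CPM and the log2 change was -0.59 (SE 0.03, 95% interval -0.67 to -0.51, adjusted p = 1.5e-05 by limma). Of the 11297 genes of at least 5 CPM, 1562 (13.8%) fell more. In 13.41% of its 31-base words NAGK matched other transcripts, among them CYB5RL, which fell from 12.4 ± 0.436 to 8.42 ± 1.75 CPM (log2 change -0.53, adjusted p = 0.0178 by limma), and the part of shared reads was not tested.

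GNPDA1 (ENSG00000113552.16, 5:142000671-142013027), a deaminase, stood at 194, 198, 214 and 206 CPM at low glucose and at 290, 268, 255 and 259 CPM at high glucose. The groups did not overlap. The means were 203 ± 8.92 and 268 ± 15.6 CPM, with a log2 change of 0.40 (SE 0.05, 95% interval 0.28 to 0.52, adjusted p = 5.0e-04 by limma).

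GNPDA2 (ENSG00000163281.11, 4:44701795-44726556), the other deaminase, stood at 18.9, 21.8, 19.3 and 19.6 CPM at low glucose and at 20.4, 19.4, 23.8 and 19.5 CPM at high glucose. The groups overlapped. The means were 19.9 ± 1.32 and 20.8 ± 2.08 CPM and the log2 change was 0.06 (95% interval -0.12 to 0.24, adjusted p = 0.597 by limma). Its exons meet those of GUF1 on the opposite strand, which had 32.9 ± 0.645 and 30.4 ± 1.77 CPM. Of the 31-base words of GNPDA2, however, 0.0% were found in other transcripts. Per length of transcript, GNPDA2 was 9.06 ± 0.717% of the 2 deaminases at low and 7.31 ± 0.914% at high glucose, with ranges of 8.37% to 10.1% and 6.66% to 8.66% that overlapped.

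The forward and reverse steps between fructose 6-phosphate and glucosamine 6-phosphate were compared as the log2 ratio of GFPT1 plus GFPT2 to GNPDA1 plus GNPDA2, and the direction of its difference depended on the unit. In CPM it was -0.10 ± 0.0716 at low and -0.12 ± 0.141 at high glucose (SD, n = 4 each), a difference of -0.02 (exact two-sided permutation p = 0.83, also after adjustment over the 3 ratios). At high glucose, replicate 1 lay at -0.31 and replicate 4 at 0.03, with all low glucose libraries between them. Without replicate 1 the difference was 0.04. In CPM per kilobase of transcript, a unit added after the data were seen that gives the long GFPT1 transcript less weight, the log2 ratio was -1.61 ± 0.0569 at low and -1.45 ± 0.128 at high glucose, so the GFPT pair stood well below the GNPDA pair in both groups. That difference of 0.16 did not pass either (exact two-sided permutation p = 0.0857, also after adjustment over the 3 ratios). Without high glucose replicate 1 it was 0.22, with an unadjusted exact permutation p = 0.0286.

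**Figure D2:**
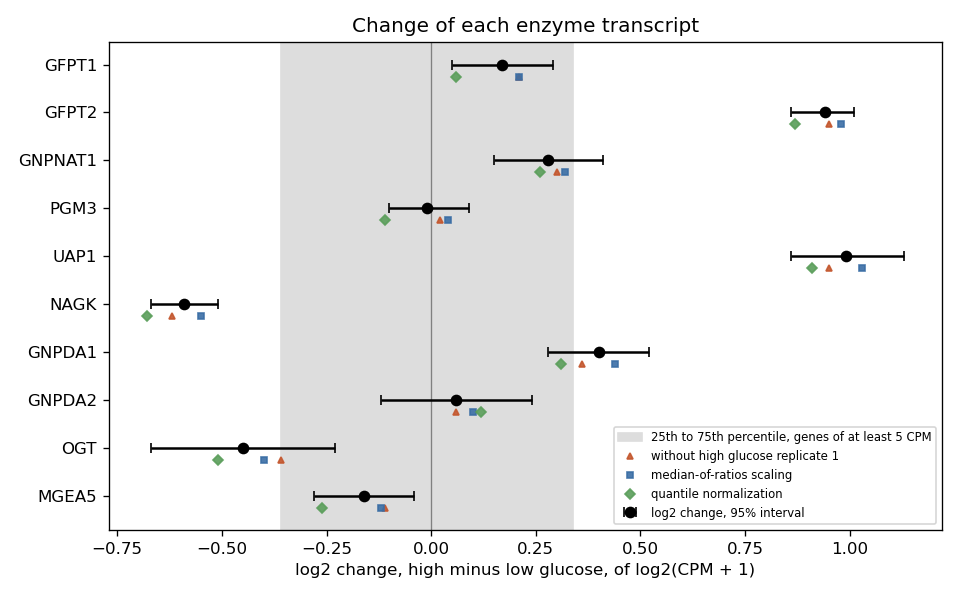
Log2 change from low to high glucose of each enzyme on the log2(CPM + 1) scale (horizontal axis), with the 95% interval and, below each, the value without high glucose replicate 1 and under 2 other scalings; the grey band runs from the 25th to the 75th percentile of genes of at least 5 CPM, -0.36 to 0.34. With all libraries and the deposited scaling, UAP1, GFPT2, GNPDA1, NAGK and OGT lie outside the band, but GNPDA1 falls inside it under quantile normalization (0.31) and OGT reaches its edge without high glucose replicate 1 (-0.36), and the values of PGM3 fall on both sides of 0.

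Both enzymes that act on the O-GlcNAc mark fell. OGT (ENSG00000147162.14, X:71533104-71575892), the transferase that writes the mark, stood at 318, 318, 314 and 347 CPM at low glucose and at 198, 253, 237 and 269 CPM at high glucose. No high glucose library reached the low glucose range. The means were 324 ± 15.4 and 239 ± 30.2 CPM, and the log2 change was -0.45 (SE 0.09, 95% interval -0.67 to -0.23, adjusted p = 0.00638 by limma). The spread at high glucose was wide, and 2295 (20.3%) of the 11297 genes fell more.

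MGEA5 (ENSG00000198408.14, 10:101784450-101818444), the hydrolase that removes the mark, stood at 194, 203, 199 and 197 CPM at low glucose and at 160, 176, 187 and 188 CPM at high glucose. The groups were separate by a small margin. The means were 198 ± 3.97 and 178 ± 13.1 CPM and the log2 change was -0.16 (SE 0.05, 95% interval -0.28 to -0.04, adjusted p = 0.0417 by limma). The call was lost in 7 of 16 alternative settings, with a change of -0.12 (adjusted p = 0.136 by limma) under median-of-ratios scaling. Without low glucose replicate 1, 2, 3 or 4 the adjusted p from limma was 0.0664, 0.0998, 0.0878 and 0.0816, and without high glucose replicate 2 it was 0.0908.

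OGT and MGEA5 were both lowest in high glucose replicate 1, the library whose values fell with transcript length, and both have long transcripts (5435 and 5174 bases). Without that library the log2 change was -0.36 for OGT and -0.11 for MGEA5, and both still passed the test (adjusted p = 0.00234 and 0.0231 by limma). The log2 ratio of OGT to MGEA5 was 0.70 ± 0.0779 at low and 0.42 ± 0.113 at high glucose (SD, n = 4 each). The difference of -0.29 gave an exact two-sided permutation p = 0.0286, the smallest that 70 assignments allow, or 0.0429 adjusted over the 3 ratios, and without high glucose replicate 1 it was -0.25.

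**Figure D3:**
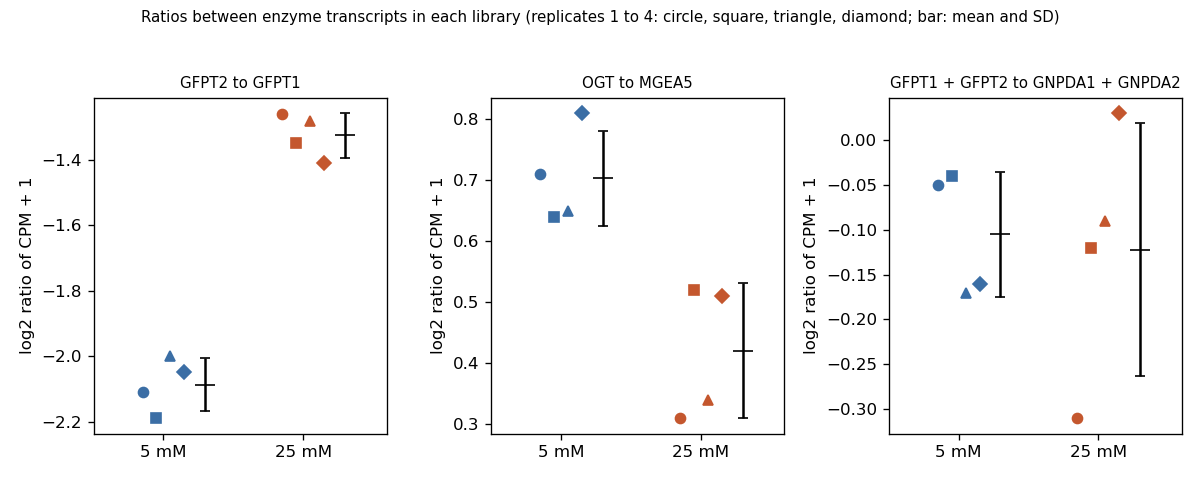
Log2 ratios of CPM + 1 between enzymes (vertical axes, which do not start at 0) in each library at 5 mM and 25 mM glucose, with the mean and SD of 4 libraries. GFPT2 to GFPT1 is higher and OGT to MGEA5 lower in every high glucose library than in any low glucose library, while the third ratio overlaps.

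Levels of different genes were compared as CPM per kilobase of annotated transcript. At low glucose GNPDA1 was the highest of the 10 at 89.5 ± 3.94, followed by OGT at 59.7 ± 2.84, MGEA5 at 38.4 ± 0.767 and NAGK at 34.4 ± 1.08 (SD, n = 4 each). GFPT1 followed at 19.4 ± 0.654, PGM3 at 14.6 ± 0.145, GFPT2 at 12.8 ± 0.459 and UAP1 at 12 ± 0.56. GNPDA2 and GNPNAT1 were lowest at 8.91 ± 0.590 and 8.09 ± 0.283. In this order GFPT2 and UAP1 overlapped across libraries, as did GNPDA2 and GNPNAT1, and all other neighbours were separate.

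At high glucose GNPDA1 was again highest at 118 ± 6.87, with OGT at 44 ± 5.56 and MGEA5 at 34.4 ± 2.53 CPM per kilobase. GFPT2 at 24.8 ± 0.615, UAP1 at 24.1 ± 1.73, NAGK at 22.7 ± 0.887 and GFPT1 at 21.9 ± 1.46 formed a run in which each overlapped the next. The lowest OGT library (36.5) was barely above the highest MGEA5 library (36.4). PGM3 stood at 14.6 ± 0.847, apart from its neighbours, and GNPNAT1 at 9.91 ± 0.718 overlapped GNPDA2 at 9.30 ± 0.931.

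**Figure D4:**
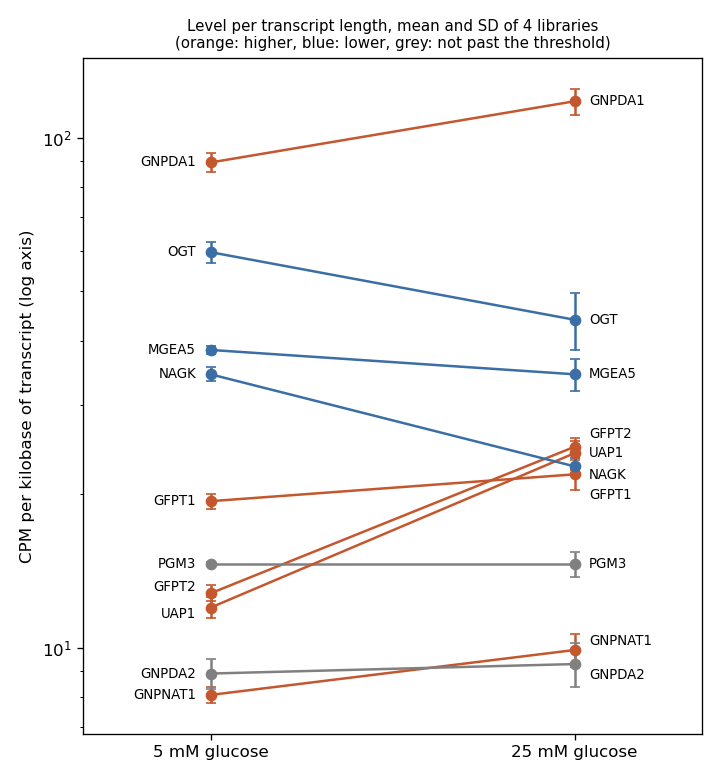
CPM per kilobase of transcript (log axis) at 5 mM and 25 mM glucose, as the mean and SD of 4 libraries, with 1 line per enzyme coloured by the direction of its call. GFPT2 and UAP1 climb from the lower part of the order to the level of NAGK and GFPT1, and NAGK drops to meet them.

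Genes next to the pathway were read from 6 lists that together held 58 genes, all found in the table. Of the 58, 26 rose and 13 fell, with a median log2 change of 0.09, beside the 33.6% and 33.3% called higher and lower among genes of at least 5 CPM. The lists were chosen by function but with earlier results of these data known, and a gene was later taken out of a list. Their counts are therefore a description and do not set the lists apart from other genes. The genes named in each list are those with the smallest adjusted p from limma, unless said otherwise.

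Of 12 genes that supply the substrates, 5 rose, 3 fell and 4 did not pass, with a median log2 change of 0.08. SLC38A2, a glutamine carrier, rose from 966 ± 15.3 to 2060 ± 28.3 CPM (log2 change 1.09, SE 0.03, adjusted p = 1.6e-06 by limma). SLC1A5, another glutamine carrier and named after its values were seen, was called lower, from 128 ± 4.06 to 111 ± 9.05 CPM. Its log2 change was -0.20 (adjusted p = 0.0234 by limma), and its groups overlapped. HK2, a hexokinase, rose from 34.8 ± 0.867 to 72.4 ± 1.93 CPM and SLC2A1, the glucose carrier GLUT1, from 117 ± 5.13 to 197 ± 18.1 CPM. ACLY, which makes cytosolic acetyl-CoA, fell from 561 ± 7.57 to 384 ± 10.6 CPM and CAD, which starts pyrimidine synthesis, from 183 ± 4.83 to 119 ± 5.92 CPM. The log2 changes of the latter pair were -0.55 and -0.62.

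Of 9 genes of salvage and sugar interconversion, 3 rose, 1 fell and 5 did not pass, with a median of 0.11. GNE, the entry to sialic acid synthesis from UDP-GlcNAc, rose from 100 ± 2.13 to 218 ± 14.5 CPM (log2 change 1.11, SE 0.05, adjusted p = 4.3e-06 by limma). UAP1L1, a paralog of UAP1, rose from 170 ± 6.80 to 250 ± 19.6 CPM and NANS, the sialic acid synthase, from 80.5 ± 1.78 to 96.3 ± 7.67 CPM. GALK2, a kinase for N-acetylgalactosamine, fell from 17.2 ± 0.778 to 14.4 ± 1.16 CPM. The calls of both NANS and GALK2 were lost under quantile normalization, with log2 changes of 0.15 and -0.16 (adjusted p = 0.0578 and 0.0725 by limma) in place of 0.25 and -0.24. NANP, a phosphatase of sialic acid synthesis, stood at 25.7 ± 2.05 and 27.8 ± 1.31 CPM (log2 change 0.11, 95% interval -0.04 to 0.26, adjusted p = 0.19 by limma).

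Among 6 carriers that bring nucleotide sugars into the Golgi or the endoplasmic reticulum, 3 rose, 2 fell and 1 did not pass. SLC35A2, the carrier of UDP-galactose, went from 73.3 ± 2.91 to 116 ± 12.7 CPM, SLC35D1, a carrier of UDP-glucuronic acid, from 27.5 ± 1.64 to 43.9 ± 5.81 CPM and SLC35A1, the carrier of CMP-sialic acid, from 12.5 ± 0.890 to 16.2 ± 0.610 CPM. SLC35D2, which carries UDP-GlcNAc, fell by the largest amount of the 6, from 27.7 ± 1.24 to 13.9 ± 1.05 CPM (log2 change -0.95, SE 0.06, adjusted p = 1.8e-05 by limma), and SLC35B4, a carrier of UDP-xylose and UDP-GlcNAc, fell from 63.2 ± 2.48 to 48.4 ± 3.22 CPM. SLC35A3, the main Golgi carrier of UDP-GlcNAc and chosen here after its values were seen, was the gene that did not pass, at 40.8 ± 2.46 and 36.1 ± 2.38 CPM (adjusted p = 0.0501 by limma).

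The 10 genes of N-glycan assembly and branching gave 3 higher and 5 lower calls and a median log2 change of -0.30. DPAGT1, which spends the first UDP-GlcNAc of the N-glycan precursor, fell from 34.5 ± 1.18 to 23.3 ± 1.78 CPM (log2 change -0.55, SE 0.05, adjusted p = 1.8e-04 by limma). ALG13, which helps add the second GlcNAc, ALG1, which adds the first mannose, and MGAT3, which adds the bisecting GlcNAc, fell by 0.33, 0.39 and 0.48 on the log2 scale. MGAT4A, a branching enzyme, went the other way, from 7.79 ± 0.573 to 18.0 ± 1.68 CPM, with a log2 change of 1.11. MGAT4B, more abundant and named after its values were seen, was called lower, from 88.1 ± 4.18 to 73.4 ± 6.63 CPM. Its log2 change was -0.26 (adjusted p = 0.0147 by limma). ALG14 and MGAT1, also named after their values were seen, were called higher, with log2 changes of 0.37 and 0.23 (adjusted p = 0.044 and 0.0236 by limma).

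Of 11 other users of UDP-GlcNAc, 5 rose and 2 fell, with a median of 0.04. HAS3, a hyaluronan synthase, rose from 2.39 ± 0.748 to 7.13 ± 0.810 CPM and B3GNT2, which extends lactosamine chains, from 51.7 ± 0.815 to 90.9 ± 2.45 CPM. EXTL3, which takes part in heparan sulfate synthesis, fell from 53.8 ± 2.32 to 28.0 ± 2.29 CPM with a log2 change of -0.92. GCNT2, a chain-branching enzyme, and PIGA, a subunit of the first enzyme of GPI anchor synthesis, rose by less, with log2 changes of 0.27 and 0.33.

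The 10 genes for partners of OGT and proteins tied to the O-GlcNAc cycle gave 7 higher and 0 lower calls by limma (also 0 lower at an unadjusted p under 0.05), with a median log2 change of 0.44. Among genes of at least 5 CPM, 33.6% were called higher and 33.3% lower. The list was chosen with earlier results of these data known, so these counts are a description. The groups did not overlap for 6 of the 7. TET2, named after its values were seen, stood at 40.2 CPM in high glucose replicate 1, within the low glucose range of 36.8 to 42.1. At high glucose TET2, TET3, KANSL1 and MLXIP were all lowest in that library, whose values fell with transcript length. FOXO1, HCFC1, TET1 and SIN3A, named after their values were seen, were lowest there too. Without that library, 26 of the 58 genes of the 6 lists were called higher and 14 lower, beside 26 and 13 with all libraries. The part of transcript length in these changes was not tested. HCFC1, TET1 and SIN3A were the 3 that did not pass, named after their values were seen, with adjusted p of 0.103, 1.0 and 0.304 by limma. TET3, a DNA demethylating enzyme that binds OGT, rose from 67.6 ± 1.62 to 168 ± 22.5 CPM (log2 change 1.29, SE 0.09, adjusted p = 3.8e-05 by limma). CRTC2, a CREB coactivator, rose from 30.3 ± 0.571 to 68.5 ± 4.06 CPM, and KANSL1, a subunit of the NSL chromatin complex that holds OGT, MLXIP, the glucose-responsive factor MondoA, and PPP1CC, a phosphatase catalytic subunit, had log2 changes of 0.51, 0.34 and 0.46. OGT itself went the other way.

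**Figure D5:**
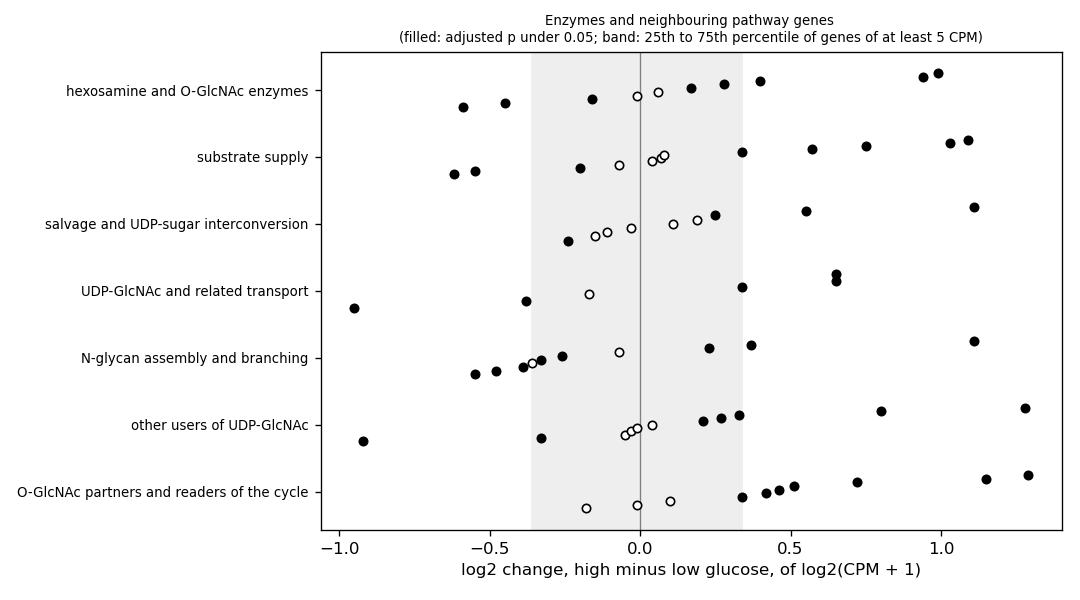
Log2 change from low to high glucose of each gene in the 10 enzymes and the 6 neighbouring lists (horizontal axis, log2(CPM + 1) scale), with filled points for an adjusted p under 0.05 and a band from the 25th to the 75th percentile of genes of at least 5 CPM, -0.36 to 0.34. Most lists spread to both sides of 0, and the points of the O-GlcNAc partners that are filled all lie above 0.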

How the data were processed

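RNA of MDA-MB-157 cells was sequenced on an Illumina HiSeq machine in 8 libraries, 4 per glucose level, grouped by their labels. The values deposited by the authors are in CPM (counts per 1000000 reads) after scaling by the trimmed mean of M values in edgeR. The submitters' processing notes name hg38, whereas the methods describe, for tumors, alignment to hg19, so positions are given only from RefSeq (GRCh38.p14). Transcript lengths came from GENCODE v44, which gave 20730 genes a length.

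Of 21077 lines, 18 Y copies of pseudoautosomal genes were left out, all identical to their X copies, and 21059 genes were tested. Within a library, low values were spaced by 0.0706 to 0.0889 CPM, taken as 1 read, yet 73.2% to 74.6% of the values under 200 reads were whole steps (tolerance 0.02), so whole reads could not be recovered and no count test was run. Read sums per library were estimated from those steps. A count of 3 reads corresponded to 0.212 to 0.267 CPM. Such floors cover counting error only.

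The test was limma 3.58.1 in R 4.3.3 on log2(CPM + 1), with a mean-variance trend, no filter on low values and Benjamini-Hochberg adjustment over all genes (threshold 0.05). Fold changes on this scale understate the change of low genes. The 3 ratios were tested by exact permutation over 70 assignments. The genes named are the 10 enzymes, the 5 genes of each list with the smallest adjusted p, and the 5 genes closest to the enzyme of largest change. Further list genes are marked where they were named after their values were seen. The members, lists and tests were chosen with earlier results of these data known, and 1 gene was later taken out of a list and is not reported here. Alternatives were a pseudocount of 0.1, minimum means of 1 and 5 CPM, median-of-ratios scaling, quantile normalization, a replicate block, each library left out, array weights and removal of length trends within groups, which by construction leaves differences between them as they were. No column of per-sample values was left unused.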

Additional observations from a re-analysis of the deposited data

Results flagged for a closer look

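In groups of 4 libraries, 1 library was set apart when its gap to the nearest other, divided by the range of the group, passed the 95% critical value of Dixon for 4 values. Of 106 groups examined, 8 did so, 5 at low and 3 at high glucose, where chance at 1 in 20 gives about 5.3. Among the 10 enzymes the library was low glucose replicate 4 in both cases. GNPNAT1 had a gap ratio of 0.929 there (32.9 CPM against 30.7 to 30.8), and OGT had 0.873 (347 CPM against 314 to 318). High glucose replicate 1 was apart for ALG1, with 0.837 (49.5 CPM against 41.3 to 42.6). High glucose replicate 3 was apart for CRTC2, with 0.837 (74.5 CPM against 65.5 to 67.0). The other 4 were markers of other cell types at very low levels. PECAM1 at low glucose gave 0.929 (replicate 4, 1.24 CPM against 0.911 to 0.934), CDH5 gave 0.882 at low glucose (replicate 3, 0.0849 CPM against 0.331 to 0.364) and 1 at high glucose (replicate 3, 0.0825 CPM, the others listed at 0), and ALB at low glucose gave 0.979 (replicate 4, 0.364 CPM against 0.166 to 0.170).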

How the results depend on the processing

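Across the 16 alternatives, GFPT2, GNPNAT1, UAP1, NAGK, GNPDA1 and OGT kept their direction and their call, with log2 changes of 0.87 to 0.98, 0.25 to 0.32, 0.91 to 1.03, -0.68 to -0.55, 0.31 to 0.44 and -0.51 to -0.36. The minimum means, the replicate block and the removal of length trends leave the log2 change of a gene as it was. They can therefore alter only its call. The number of enzymes called ran from 4 to 5 higher and from 2 to 4 lower, with 4 lower under quantile normalization and 2 under median-of-ratios scaling. No scaling moved the median of genes of at least 1 CPM by more than 0.04. The direction of PGM3 turned to 0.04 under median-of-ratios scaling, and to 0.02 and 0.01 without high glucose replicates 1 and 3 (range -0.04 to 0.02 with each library left out). The direction of GNPDA2 turned to -0.01 without high glucose replicate 3 (range -0.01 to 0.10), of ALB to 0.01 without low glucose replicate 4 (range -0.07 to 0.01) and of PTPRC to -0.01 without low glucose replicate 2 (range -0.01 to 0.06). None of these passed the test with all libraries. Leaving out each library in turn, the log2 ratio of GFPT1 plus GFPT2 to GNPDA1 plus GNPDA2 differed by -0.07 to 0.04, turning to 0.00053, 0.0034 and 0.04 without low glucose replicates 1 and 2 and high glucose replicate 1, and the causes were not tested. Per kilobase of transcript, a unit added after the data were seen, it differed by 0.16, since that unit weights the sums by transcript length. Of the list genes named for their smallest adjusted p, NANS and GALK2 lost their calls under quantile normalization (0.15 and -0.16).

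The labels number the replicates alike in both groups, and deviations of same-numbered libraries correlated at 0.069, -0.028, 0.014 and -0.04. These values cannot decide whether same-numbered cultures were paired, since deviations in high glucose replicate 1 also fell with transcript length (Spearman correlation of -0.65). Pairing therefore stays unknown, and the main test has no block. With the replicate block, 4 enzymes were called higher and 2 lower, and GALK2 and CDH5 were no longer called (adjusted p of 0.0715 and 0.0562 by limma). The ratio of GFPT2 to GFPT1 kept its difference of 0.76 and that of OGT to MGEA5 its -0.29, each with an adjusted exact p of 0.188, since 4 pairs cannot give an unadjusted exact p below 0.125. The enzymes rested on 219 reads or more in every library, whereas ESR1, PTPRC, CDH5 and ALB lay near the level of 3 reads.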
